A study of Caenorhabditis elegans with 4 samples.

Results

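Cytochrome P450 genes were described in whole nematode larvae (Caenorhabditis elegans) of 2 genotypes, wild type and mutants that carry allele uf171 of dve-1. The members were all protein-coding genes whose symbol starts with cyp- and a number, and the symbol alone chose them. The annotation holds 74 such genes, of which 72 had a value in the deposited table, out of 17958 protein-coding genes with one. The other 2, cyp-13A1 and cyp-25A6, were not analysed here, and neither were 6 cyp pseudogenes. RNA-seq was run on 2 libraries of each genotype, 4 in all, from animals grown at 25 degrees Celsius on E. coli OP50. The labels name the L4 larval stage, while the protocol text names L1, and the labelled stage is used here. Nothing in the labels says whether libraries came from separate cultures, how uf171 changes the gene, or whether further alleles were present. P-values therefore reflect the spread of these 4 libraries alone, and that spread may be technical.

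P450 enzymes are haem proteins that insert an oxygen atom into lipids, hormones and foreign compounds, using electrons passed on by a reductase. In C. elegans many act in the intestine in the first phase of detoxification, and several others make signalling lipids from polyunsaturated fatty acids or take part in forming the eggshell. The homeodomain protein DVE-1 is best known for its part in the mitochondrial unfolded protein response, and impaired mitochondria are among the conditions known to induce detoxification genes in this animal.

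Values are FPKM, fragments scaled by transcript length and by library size, summed here per gene. The steps between low values put the depth near 14900000 and 15300000 fragments for wild type replicates 1 and 2, and near 14350000 and 14050000 for the mutant replicates. At these depths 1 fragment on a transcript of 1600 nucleotides is worth 0.0408 to 0.0445 FPKM. The dve-1 transcript itself read 14.2 and 13.9 FPKM in wild type, against 22.98 and 21.1 FPKM in the mutant, and since the labels do not describe the allele this does not check them. Libraries of a genotype differed in stage-linked genes. The oocyte markers summed to 265 and 187 FPKM in wild type, against to 158 and 623 FPKM in mutant replicates 1 and 2, and col-19, a collagen known from the adult cuticle, read 14.2, 35.96, 8.51 and 397 FPKM in the same order. In both, mutant replicate 2 stood apart from the other 3 libraries.

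Of the 74 annotated P450 genes, 41 (55.4%) lie on chromosome V, which holds 25.0% of all annotated protein-coding genes. Many sit in runs, defined here as at least 3 members with gaps of at most 20 kb, in WBcel235 coordinates. The longest run holds 10 genes of the cyp-34A and cyp-35 groups (chromosome V, 3936326 to 3972991). A run of 8 cyp-13A genes lies on chromosome II (9779181 to 9807569), 4 cyp-25A genes on chromosome III (3832591 to 3852080) and 4 cyp-14A genes on chromosome X (13265041 to 13284197). Genes of such runs can be close copies, and cyp-31A2 and cyp-31A3 are known as near-identical, so how fragments were split among them is uncertain. Of the 72 members, 67 rest on a single transcript accession.

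As a whole the P450 genes were modestly expressed, and their summed level did not differ between the genotypes beyond the spread of the libraries. The 72 members together read 437 and 485 FPKM in wild type, against 480.1 and 454 FPKM in the mutant. The groups overlapped, with means of 461 ± 33.6 and 467 ± 18.6 FPKM (SD, n = 2), and an exact two-sided permutation test gave p = 1, where 2 libraries against 2 cannot go below 0.333. In each library a single gene, cyp-35A2, held 13.6% to 17.9% of the sum and the 5 highest genes held 36.9% to 42.3%. At least 1 FPKM was reached by 49 members in each library except mutant replicate 2, where it was reached by 47.

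**Figure D1:**
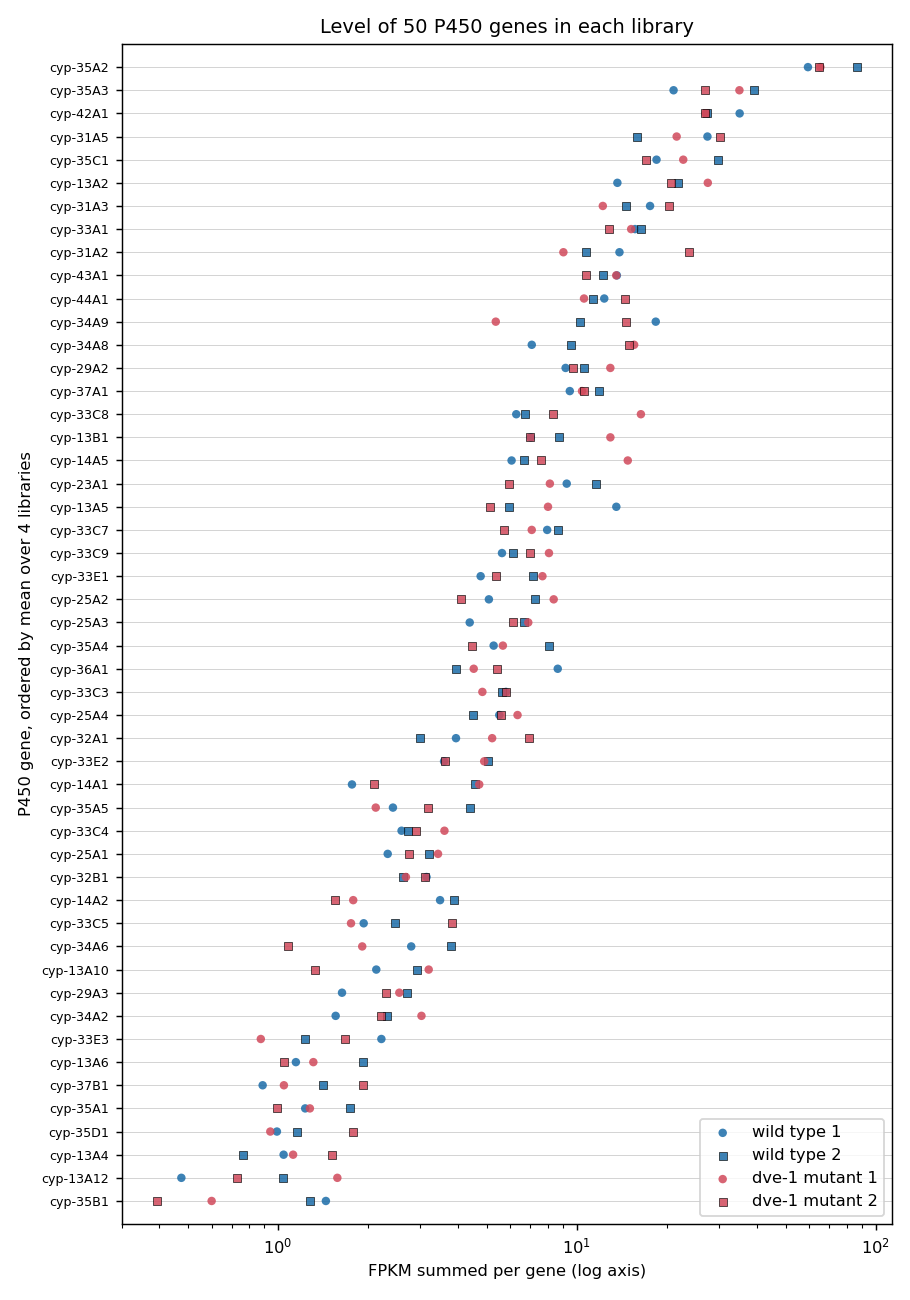
FPKM of the 50 tested P450 genes on a log axis, with 1 point per library (circles, replicate 1; squares, replicate 2; blue, wild type; red, dve-1 mutant), ordered by their mean over the 4 libraries. The genes run from cyp-35A2, at 59.4 to 86.9 FPKM, down to cyp-35B1, at 0.393 to 1.45 FPKM, and for most of them the colours are mixed.

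Of the 72 members, 50 entered the comparison of genotypes because they reached 1 FPKM in at least 2 libraries. The other 22 stayed at or below 1.61 FPKM in every library, and 14 of these rested on at most 10 estimated fragments in every library. One tested member, cyp-35B1, passed the filter through the wild type libraries alone, so that it had to differ. Of the tested members, 43 had at least 1 FPKM in all 4 libraries.

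No P450 gene passed the test of genotype. With limma on log2(FPKM + 1) and Benjamini-Hochberg adjustment over all 14652 tested genes, 0 of 50 members had an adjusted p under 0.05, against 0.13% of all tested genes and 0.00743% (1 of 13467) of protein-coding ones, and the smallest adjusted p among members was 0.861. At an unadjusted p under 0.05 there was 1 member higher in the mutant and 1 lower, where 2.05% of all tested genes were higher and 2.55% lower at that level, and 1.5% and 1.97% of protein-coding ones. By sign, 26 of the tested members were higher and 24 lower, with a median log2 fold change of 0.03, beside a median of -0.02 over all tested genes. With no filter on low values the median over all 72 members was 0.02. Log2 fold changes of members ran from -0.81 to 0.81, and their standard errors had a median of 0.29. The interval of 48 of the 50 spanned 0, so differences of this size could not be told from the spread of 2 libraries against 2.

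**Figure D2:**
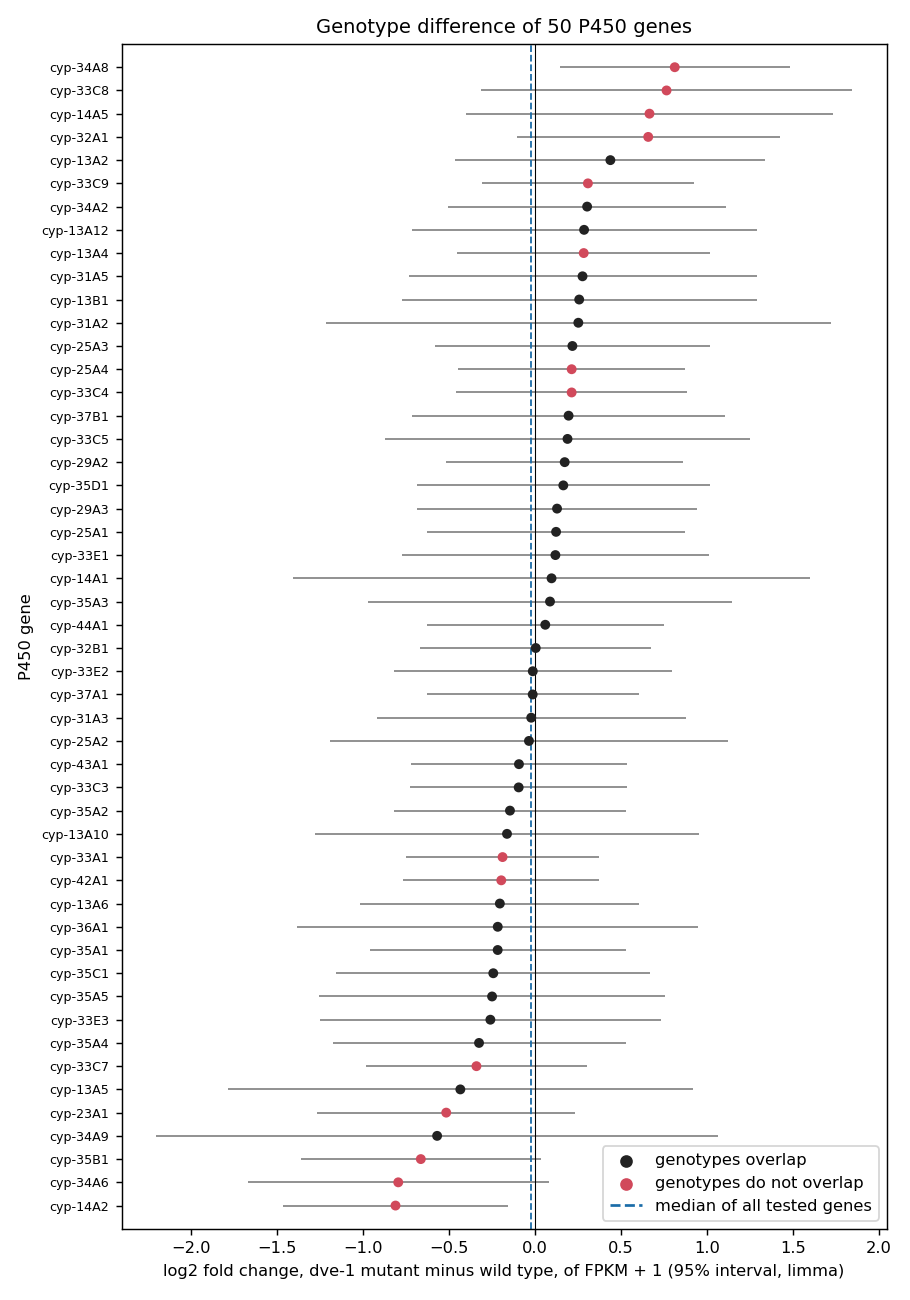
Log2 fold change of each tested P450 gene, mutant minus wild type of log2(FPKM + 1), with its 95% interval from limma (n = 2 libraries per genotype), red where the genotypes do not overlap. The points run from -0.81 (cyp-14A2) to 0.81 (cyp-34A8) around the median of all tested genes at -0.02, and 15 of the 50 are red.

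Groups did not overlap for 15 of the 50 tested members (30%), where 28.1% of all tested genes and 27.7% of protein-coding ones did the same. Of these, 8 were higher in the mutant (background 11.9%) and 7 lower (background 16.2%). The members' share was near that of all genes, so the values that follow describe single genes.

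Among the tested members the largest difference upward on log2(FPKM + 1) was in cyp-34A8 (B0213.14; chromosome V, 3964797 to 3967823), which lies in the run of 10. It read 7.07 and 9.58 FPKM in wild type, against 15.6 and 14.9 FPKM in the mutant. Both mutant libraries lay above both wild type libraries, with a log2 fold change of 0.81 (95% interval 0.15 to 1.48, unadjusted p = 0.0281, limma adjusted p = 0.874). In the same run cyp-34A6 (B0213.11; 3958160 to 3961335), lay the other way, at 2.79 and 3.80 FPKM in wild type, against 1.91 and 1.08 FPKM in the mutant. The log2 fold change was -0.79 (95% interval -1.67 to 0.08), and the gene rests on 2 accessions. One of these was listed at 0 in wild type replicate 1 and the other in mutant replicate 2. A further gene of the run, cyp-35B1 (K07C6.4), known as a gene under the control of the insulin pathway factor DAF-16, read 1.45 and 1.28 FPKM in wild type, against 0.6001 and 0.393 FPKM in mutant libraries (log2 fold change -0.66, 95% interval -1.36 to 0.04). As given above, it entered the test through the wild type libraries alone.

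On log2(FPKM + 1) the largest difference downward was in cyp-14A2 (K09A11.3; chromosome X, 13267562 to 13269686). It read 3.49 and 3.87 FPKM in wild type, against 1.79 and 1.55 FPKM in the mutant, so that both mutant libraries were below both wild type libraries. The means were 3.68 ± 0.271 and 1.67 ± 0.165 FPKM (SD, n = 2), with a log2 fold change of -0.81 (95% interval -1.46 to -0.16, unadjusted p = 0.0264, limma adjusted p = 0.861). The order depends on the pseudocount, since at 0.1 the log2 fold changes were -1.10 for cyp-14A2, -1.12 for cyp-34A6 and -1.32 for cyp-35B1. Its neighbour cyp-14A1 (K09A11.2; 13265041 to 13267355) overlapped between the genotypes, at 1.77 and 4.57 FPKM in wild type, against 4.72 and 2.09 FPKM in the mutant. A further member of the group on chromosome V, cyp-14A5 (F08F3.7), read 6.05 and 6.64 FPKM in wild type, against 14.8 and 7.59 FPKM in the mutant. Its log2 fold change of 0.67 was 1.11 without mutant replicate 2 and 0.23 without mutant replicate 1, so it came mainly from mutant replicate 1. The same held for cyp-33C8 (R08F11.3), at 6.27 and 6.69 FPKM in wild type, against 16.4 and 8.30 FPKM in the mutant, with a log2 fold change of 0.77, of 1.22 without mutant replicate 2 and of 0.31 without mutant replicate 1.

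Among the remaining members with the smallest p, cyp-32A1 (C26F1.2) read 3.94 and 2.999 FPKM in wild type, against 5.21 and 6.94 FPKM in mutant libraries (log2 fold change 0.66, 95% interval -0.11 to 1.42). For cyp-23A1 (B0304.3) the values were 9.26 and 11.6 FPKM in wild type, against 8.13 and 5.93 FPKM in mutant libraries (log2 fold change -0.52, 95% interval -1.27 to 0.24). Neither gene overlapped between genotypes. Within the cyp-33C group, cyp-33C7 read 7.96 and 8.65 against 7.07 and 5.70 FPKM and cyp-33C9 read 5.62 and 6.14 against 8.07 and 6.99 FPKM, again without overlap and in opposite directions. In the run of cyp-13A genes, cyp-13A2 read 13.7 and 21.8 FPKM in wild type, against 27.4 and 20.7 FPKM in the mutant, and cyp-13A4 read 1.04 and 0.765 against 1.12 and 1.52 FPKM. The genotypes overlapped for the first of these and were separate for the second. cyp-13A7 of the same run, known for its induction by the antibiotic rifampicin, was not tested, with 0.119 and 0.0576 FPKM in wild type, against 0.123 and 0.125 FPKM in the mutant. It rested on at most 2.9 estimated fragments in any library.

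The cyp-35 family, best known for intestinal genes that foreign compounds induce, held the highest P450 levels. Its 10 members summed to 110 and 173 FPKM in wild type, against to 134 and 119.3 FPKM in the mutant, so wild type replicate 2 was the highest library and wild type replicate 1 the lowest. Means of 142 ± 44.01 and 127 ± 10.2 FPKM (SD, n = 2) did not differ beyond this spread (exact two-sided permutation p = 1). cyp-35A2 (C03G6.15; chromosome V, 7362319 to 7364182), whose family is linked to fat storage, read 59.4 and 86.9 FPKM in wild type, against 65.3 and 64.5 FPKM in the mutant. The mutant values lay between the wild type values, and the log2 fold change was -0.14 (95% interval -0.82 to 0.53). The next gene on the chromosome, cyp-35A1 (C03G6.14; 7359929 to 7361773), was far lower, at 1.23 and 1.74 against 1.28 and 0.993 FPKM.

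The other cyp-35 genes overlapped between the genotypes, except cyp-35B1. cyp-35A3 read 21.1 and 39.2 FPKM in wild type, against 35.02 and 26.8 FPKM in the mutant, and cyp-35C1 read 18.5 and 29.7 against 22.7 and 17.0 FPKM. cyp-35A4 stood at 5.27 and 8.09 against 5.66 and 4.46 FPKM and cyp-35A5 at 2.43 and 4.38 against 2.13 and 3.18 FPKM. All 4 were lowest or next to lowest in wild type replicate 1 and highest in wild type replicate 2. cyp-35D1, known for hydroxylating the anthelmintic thiabendazole, read 0.992 and 1.16 against 0.943 and 1.79 FPKM. cyp-35B2 and cyp-35B3 were not tested, with at most 0.241 FPKM in any library, and cyp-35B3 was listed at 0 in 3 of the 4 libraries.

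Members linked to the eggshell behaved otherwise. cyp-31A2 and cyp-31A3 are known to act together in forming the eggshell of the embryo. cyp-31A2 (H02I12.8; chromosome IV, 11403961 to 11406052) read 13.9 and 10.7 FPKM in wild type, against 9.02 and 23.7 FPKM in the mutant. cyp-31A3 (Y17G9B.3; 4761049 to 4762885) read 17.6 and 14.6 against 12.2 and 20.3 FPKM, and cyp-31A5 read 27.4 and 15.9 against 21.6 and 30.1 FPKM. The value of cyp-31A5 is the sum of 3 accessions, of which 1 was listed at 0 in mutant replicate 1, possibly a failed estimate. All 3 were highest in mutant replicate 2 and next highest in wild type replicate 1. The log2 fold change of cyp-31A2 was 0.25 (95% interval -1.22 to 1.72), of -0.40 without mutant replicate 2 and of 0.90 without mutant replicate 1. Its direction therefore rested on mutant replicate 2, the library with the highest oocyte marker sum.

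Genes that make signalling lipids or answer to oxygen showed no separation of the genotypes. cyp-33E2, a pharyngeal enzyme that makes eicosanoids, read 3.60 and 5.03 FPKM in wild type, against 4.90 and 3.62 FPKM in the mutant, and cyp-33E1 of the same chromosome read 4.77 and 7.14 against 7.68 and 5.39 FPKM. cyp-29A3, also known for acting on polyunsaturated fatty acids, read 1.64 and 2.70 against 2.55 and 2.29 FPKM, and cyp-29A2 read 9.18 and 10.6 against 12.95 and 9.73 FPKM. cyp-13A12, known from the behavioural response to returning oxygen, read 0.475 and 1.04 against 1.58 and 0.732 FPKM. Each was lowest in wild type replicate 1 and higher in mutant replicate 1 than in mutant replicate 2. cyp-36A1 (chromosome I), known to act downstream of the hypoxia factor HIF-1, read 8.64 and 3.94 FPKM in wild type, against 4.52 and 5.40 FPKM in the mutant, so the wild type libraries alone spanned all the values.

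cyp-44A1, the mitochondrial P450 of C. elegans and so the member nearest to the mitochondrial setting of DVE-1, read 12.4 and 11.3 FPKM in wild type, against 10.6 and 14.5 FPKM in the mutant. Its log2 fold change was 0.06 (95% interval -0.63 to 0.75, limma adjusted p = 0.9995). cyp-37A1 read 9.48 and 11.9 against 10.4 and 10.6 FPKM, and cyp-42A1, the third highest member, read 35.1 and 27.3 against 26.98 and 26.88 FPKM. For cyp-42A1 the genotypes did not overlap, but wild type replicate 2 lay close to both mutant libraries. cyp-25A2 read 5.08 and 7.22 against 8.37 and 4.09 FPKM, with the mutant libraries outside the wild type range on both sides.

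Of the 5 members whose replicates differed most, 3 rest on 1 accession each, namely cyp-31A2 (described above), cyp-13A5 and cyp-14A1, and 2 on several. cyp-34A9 (B0213.15), known as a target of DAF-16, read 18.4 and 10.2 FPKM in wild type, against 5.36 and 14.6 FPKM in the mutant over 4 accessions. One of these read 11.996 and 8.43 FPKM in wild type replicate 1 and mutant replicate 2 and was listed at 0 in the other libraries, and 3 of the 4 were listed at 0 in mutant replicate 1. The value of cyp-33C2 in wild type replicate 1, at 1.20 FPKM, came mainly from an accession at 0.845 FPKM that was listed at 0 in the other 3 libraries. An exact 0 of an accession can be a failed estimate, so the replicate differences of cyp-34A9 and cyp-33C2 are not read as expression. cyp-13A5 read 13.6 and 5.93 FPKM in wild type, against 8.01 and 5.14 FPKM in the mutant, with wild type replicate 1 above the other 3 libraries.

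For 41 of the 50 tested members the larger of the 2 replicate differences, on log2(FPKM + 1), exceeded the difference between the genotype means. Single libraries differ more than means of 2, so many genes without a genotype difference would do the same. The share of all tested genes was not counted, so the 41 are not read as particular to P450 genes. The replicate differences of the members had an order, which was looked for after the values were seen. In 29 of the 50 (58%), wild type replicate 2 was above replicate 1 while mutant replicate 1 was above replicate 2, where 25.6% of all tested genes did so. The reverse order was found in 11 members (22%), where 41.9% of all tested genes showed it. Over all tested genes the median difference of wild type replicate 2 minus replicate 1 was -0.13 on the log2 scale, and that of mutant replicate 2 minus replicate 1 was 0.02, while the members had medians of 0.21 and -0.19. After the libraries were centred on their medians the first order held for 33 members (66%) and for 44.3% of all genes, so the gap between members and all genes was smaller. Pearson's r of the 2 replicate differences was -0.47 across the 50 members, -0.31 across protein-coding genes tested and -0.19 across all tested genes, over genes that share the same 4 libraries.

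**Figure D3:**
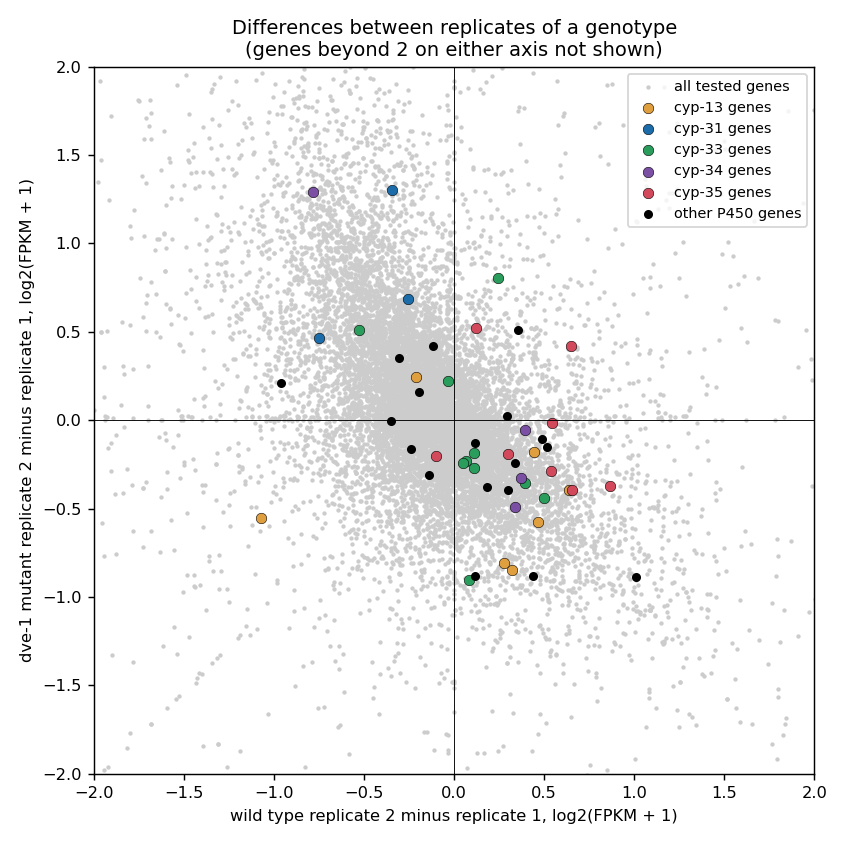
Difference between the replicates of the dve-1 mutant (vertical axis) against that of wild type (horizontal axis), both replicate 2 minus replicate 1 of log2(FPKM + 1), for all tested genes in grey and the 50 tested P450 genes in colour by family. The lower right corner, with wild type 2 above 1 and mutant 1 above 2, holds 29 P450 genes, and all 3 cyp-31 genes lie in the upper left corner.

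The 29 members of the first order came from most families. They included 5 of 8 tested cyp-35 genes, 5 of 7 cyp-13 genes, all 3 tested cyp-14 genes, 3 of 4 cyp-25 genes and 7 of 10 cyp-33 genes. The 11 members of the reverse order included all 3 cyp-31 genes, both cyp-32 genes, cyp-36A1, cyp-44A1 and cyp-34A9. As given above, exact 0 values enter the sums of cyp-34A9 and cyp-31A5, and of cyp-34A6 among the 29. The library order of these genes is therefore uncertain, and they were kept in the counts. Marker lists moved with both orders. Of the intestine markers 6 of 9 had the first order, and they summed to 4816 and 6117 FPKM in wild type, against to 6773 and 6688 FPKM in the mutant, with none at 0. All 9 were higher in the mutant by sign, with 5 that did not overlap (background 11.9% higher), and elt-2, which encodes the intestinal GATA factor, read 7.71 and 11.97 against 15.99 and 10.8 FPKM. Of the 7 hypodermis markers 5 were lower by sign, 3 of them without overlap (background 16.2% lower), and wrt-2 read 182 and 191 against 119.8 and 84.6 FPKM (unadjusted p = 0.0173, limma adjusted p = 0.717). Of the pharynx markers 4 of 5 had the first order, summing to 283 and 348 against 420.3 and 333 FPKM, with none at 0. All 8 oocyte markers and all 6 sperm markers had the reverse order, with none at 0, and the sperm markers summed to 2903 and 2173 FPKM in wild type, against to 1197 and 3087 FPKM in the mutant. The first order was also that of 3 of 4 body wall muscle markers, 4 of 7 hypodermis markers and 2 of 4 neuron markers, and the reverse order that of 4 of 6 germline markers. Among these lists rab-3 was listed at 0 in mutant replicate 1 and pgl-1 in both wild type libraries. The part of intestinal and gamete RNA in the P450 values was not tested. In whole animals fewer cells of a type and less RNA per cell cannot be told apart.

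**Figure D4:**
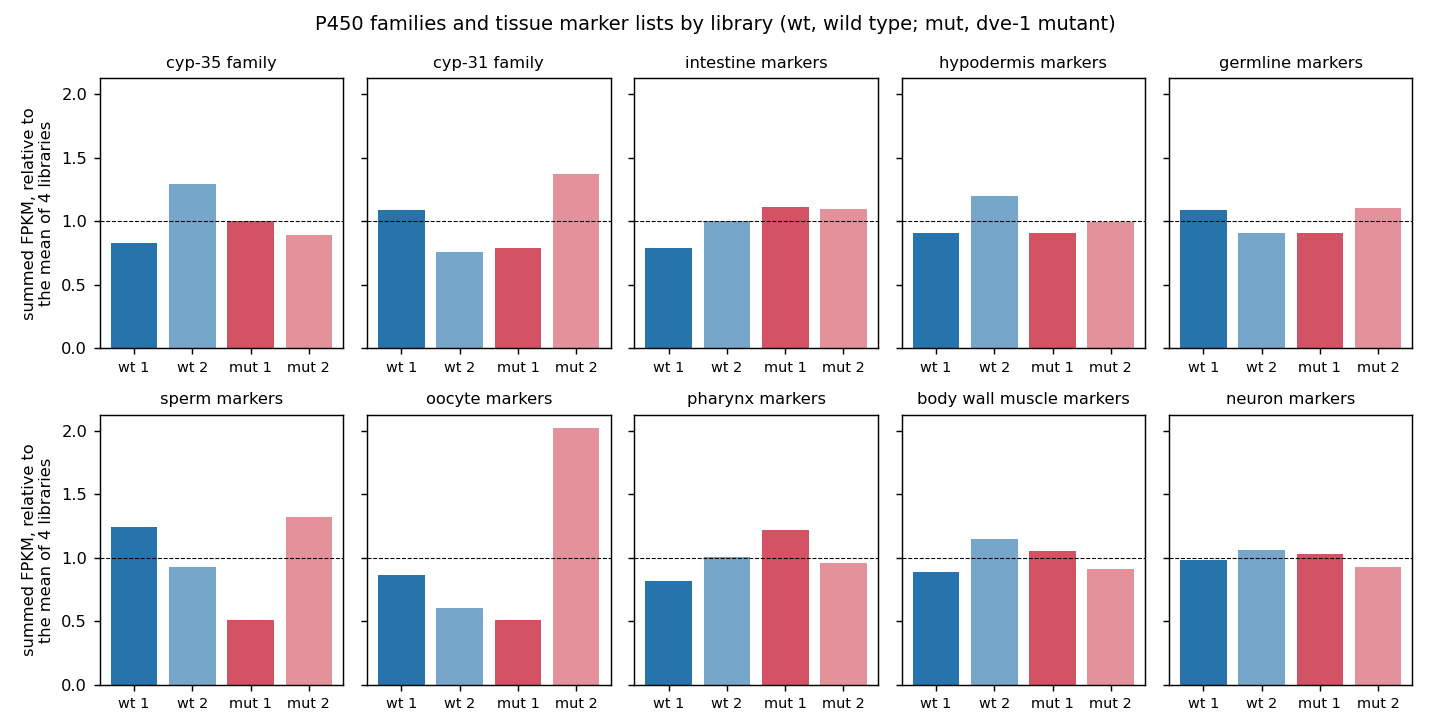
Summed FPKM of the cyp-35 and cyp-31 families and of 8 tissue marker lists in each library, as a ratio to the mean of the 4 libraries (bars from 0; wt, wild type; mut, dve-1 mutant; dashed line at 1). The cyp-35 family was highest in wild type replicate 2, at 1.29, and the cyp-31 family highest in mutant replicate 2, at 1.37, where the oocyte markers stood at 2.02. Single genes weigh on some sums. In mutant replicate 2, col-19 gave 397 of the 875 FPKM of the hypodermis markers. The gene asp-1 read 2576 to 3615 FPKM, where the intestine markers summed to 4816 to 6773 FPKM.

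Genes that work with the P450 enzymes were described from 6 lists of partners, regulators and substrate suppliers. Of 43 listed genes 41 had a value and 39 were tested, none of which passed (limma, background 0.13%) and none of which had an unadjusted p under 0.05. By sign 21 were higher and 18 lower in the mutant. Groups did not overlap upward for 2 (background 11.9%) and downward for 8 (background 16.2%). Both directions together made 25.6%, near the 28.1% of all tested genes. emb-8, the reductase that hands electrons to P450 enzymes, read 78.2 and 86.8 FPKM in wild type, against 82.4 and 80.9 FPKM in mutant libraries (log2 fold change -0.01, 95% interval -0.42 to 0.39). cytb-5.1, a cytochrome b5, read 472 and 591 against 579 and 379 FPKM. daf-9, the P450 that makes the steroid hormone dafachronic acid and carries no cyp symbol, read 2.66 and 5.19 against 5.70 and 2.69 FPKM, in the same library order as most members. The median log2 fold changes were -0.01 for 3 electron partners, -0.14 for 6 genes of the dafachronic acid pathway, -0.02 for 17 regulators, -0.02 for 6 genes of fatty acid supply and epoxide breakdown and 0.08 for 3 eggshell lipid genes.

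Haem transport genes lay higher by sign in the mutant, 4 of 4 tested, where 6762 of all 14652 tested genes did. Their median log2 fold change was 0.42 and the intervals of all 4 spanned 0. Upward, 1 of the 4 did not overlap, where 11.9% of all tested genes did the same. All 4 also had the order of the 29 members, and hrg-1 of the same list had no value. hrg-7, known from signalling between tissues about haem, read 118 and 300 FPKM in wild type, against 311 and 184 FPKM in the mutant, so its libraries overlapped. hrg-3, a secreted haem chaperone, read 18.5 and 28.3 against 46.2 and 32.5 FPKM, without overlap (log2 fold change 0.74, 95% interval -0.17 to 1.64). Among the regulators, the hypoxia genes egl-9 and vhl-1, which restrain HIF-1, read 24.2 and 24.3 against 19.3 and 19.4 FPKM and 21.7 and 22.5 against 17.3 and 16.6 FPKM. Their intervals spanned 0, with log2 fold changes of -0.31 and -0.37, and hif-1 read 144 and 150.0 against 153 and 142 FPKM. The hypoxia gene rhy-1 of the same list did not share the lower mutant values of egl-9 and vhl-1. It read 22.3 and 11.1 against 18.9 and 14.9 FPKM, with overlap and a log2 fold change of 0.08. nhr-8, a nuclear receptor of xenobiotic defence, read 13.9 and 13.8 against 16.3 and 14.8 FPKM, and skn-1, a regulator of detoxification, read 36.3 and 40.7 against 42.2 and 38.9 FPKM. mdt-15 was listed at 0 in mutant replicate 1 and read 22.8, 25.9 and 34.1 FPKM in the other libraries. Of the fatty acid desaturases that supply P450 substrates, fat-4 read 301 and 386 FPKM in wild type, against 282 and 238 FPKM in the mutant, with no overlap, and fat-3 read 264 and 315 against 353 and 253 FPKM.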

How the data were processed

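The authors deposited 1 table of 52491 RefSeq transcript accessions with 1 value per library. These deposited values were taken as FPKM because Cufflinks is named in the submitters' processing notes, with TopHat2 and the ce11 genome, and because the values are not whole; the header names no unit. Versions, settings, strandedness and any scaling between libraries were not stated in the labels or the file. Ignoring versions, 47633 accessions (90.7%) matched the RefSeq annotation of WBcel235, and their FPKM were summed per gene, so a gene with an unmatched isoform is understated. A count model was not applied to FPKM. Depth was estimated from FPKM times length in 1511 genes with 1 transcript and the same span and accession version in both annotations, where 65.3% to 69.2% of low values fell within 0.1 of a whole fragment and evenly spread values would give 20%. This set was chosen after 12207 genes with 1 transcript gave 41.0% to 42.1%, and the 11433 of these with the same span 41.2% to 42.3%, with depths of 13900000 to 15000000 fragments. Nearly all P450 members were deposited under another accession version than the annotated one, so their estimated fragments are less certain.

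The genotypes were compared with limma 3.58.1 (R 4.3.3) on log2(FPKM + 1), using a trend of the variance with the mean, over genes that reached 1 FPKM in 2 or more libraries. Tests were two-sided, with Benjamini-Hochberg adjustment over all tested genes and a threshold of 0.05. The scale understates changes of low genes. The limma step was run on simulated data to check the code. There each gene varied on its own, unlike in these libraries, so that run does not measure error rates here. Python 3.11.15 with pandas 2.3.3 made the tables. The members and lists were chosen with earlier results of these data known. Named genes were the members with a known role, the 5 highest, the 12 with the smallest p and the 5 whose replicates differed most, 39 in all, and other genes were named after their values were seen. Alternatives were another pseudocount, other filters, 2 other scalings, no trend, protein-coding genes alone, a replicate block and each library left out.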

Additional observations from a re-analysis of the deposited data

How the results depend on the processing

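The count of 0 called P450 genes held under all 13 alternatives, in which the smallest adjusted p of a member was 0.508. Their median log2 fold change, 0.03, ran from -0.03 to 0.11 when a library was left out and so changed sign. The 15 members whose genotypes did not overlap were 10 after median-centring and 14 after quantile normalization. The share of all tested genes under these scalings was not counted, so the change is not read as particular to P450 genes. Over the whole table the 19 called genes became 86 without the trend, 10 with a pseudocount of 0.1 and 3 with no filter on low values. The count was 0 with at least 1 FPKM in all 4 libraries, among protein-coding genes alone, with the replicate block and without any 1 library. A pairing of wild type 1 with mutant 2 and wild type 2 with mutant 1, chosen after seeing the data because the replicate differences ran against each other (r = -0.19), also gave 0. The last 3 kinds of fit have fewer residual degrees of freedom. For the others the cause was not tested. Of 35 named members with a fitted value, 15 kept their sign without any 1 library. For 12 of these the genotypes did not overlap, which fixes the sign beforehand, and the remaining 3 were cyp-13A2, cyp-35A1 and cyp-35A4. The other 20 turned, with log2 fold changes of -0.0016 to 0.57 for cyp-13A12, -0.97 to 0.10 for cyp-13A5, -0.41 to 0.60 for cyp-14A1, -0.47 to 0.41 for cyp-25A2, -0.016 to 0.36 for cyp-29A2, -0.11 to 0.37 for cyp-29A3, -0.40 to 0.90 for cyp-31A2, -0.36 to 0.32 for cyp-31A3, -0.098 to 0.65 for cyp-31A5, -0.13 to 0.37 for cyp-33E1, -0.21 to 0.18 for cyp-33E2, -1.21 to 0.078 for cyp-34A9, -0.42 to 0.13 for cyp-35A2, -0.34 to 0.52 for cyp-35A3, -0.57 to 0.077 for cyp-35A5, -0.57 to 0.086 for cyp-35C1, -0.095 to 0.43 for cyp-35D1, -0.70 to 0.27 for cyp-36A1, -0.16 to 0.14 for cyp-37A1 and -0.15 to 0.27 for cyp-44A1. Under quantile normalization cyp-33E2 (0.023) and cyp-37A1 (0.026) also turned. The fit with no filter on low values covers the 22 members not tested, of which 14 had at most 10 estimated fragments in every library.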
